A study of Mus musculus with 6 samples.

Results

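Migratory dendritic cells are antigen-presenting cells that have matured, switched on the chemokine receptor Ccr7 and become able to travel to lymph nodes. Here they were chosen by their RNA among single CD11b+ brain cells. A cell was taken when it held at least 4 unique molecular identifiers (UMIs, counts of distinct transcripts) of Ccr7, Ccl22 and Fscn1 together, from at least 2 of these genes. It was also to hold at most 1 UMI of the microglial genes P2ry12, Tmem119, Siglech and Gpr34 summed, and at most 1 of Nkg7, a gene of natural killer (NK) cells. The rule found 288 of 22157 cells, 101 in pool 1, 164 in pool 2 and 23 in pool 3. They were compared with 282 conventional dendritic cells of the same pools, which held at least 3 UMIs of Mgl2 and Cd209a and none of Ccr7 and met the same microglial and Nkg7 limits, and with 7788 other infiltrating cells that met those limits and belonged to neither class.

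The study used CITE-seq, which reads antibodies carrying DNA barcodes together with the transcripts of each cell, on CD11b+ cells of C57BL/6 mice aged 12 weeks. CD11b is an integrin subunit on most myeloid cells. In each of 3 pools, 6 samples were marked by hashtag antibodies: females and males with a tumor, at day 14 and at day 21 after implantation, and controls of each sex. The tumor is a glioma per the series title. Tissue was the hemisphere with the tumor or the whole control brain, after perfusion to wash out blood. The labels tie no hashtag to a sex, a tumor or a day. Each sample is therefore identified by its pool and hashtag number, equal numbers in different pools are treated as unrelated, and sexes, days and tumors were not compared. It is not stated which animals gave which sample, so p-values measure the spread of differences within samples, which may be partly technical.

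Dendritic cells take up antigen, cut it into peptides and show these to T cells on MHC class I and class II molecules. On maturation they are known to stop taking up antigen, to hold MHC class II on their surface, to gain co-stimulatory molecules and to follow the ligands of Ccr7. Cells of this state in tumors are also known for genes that restrain T cells, among them Cd274, which encodes PD-L1. Ccl22 is a chemokine that draws T cells through the receptor Ccr4, and Fscn1 encodes fascin, which bundles actin in cell protrusions.

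The values that chose the cells are a description. Ccr7 was present in 286 of the 288 cells, Fscn1 in 237 and Ccl22 in 213, and 160 cells held all 3. The median cell had 46 UMIs of the 3 genes together (quartiles 28 and 65, range 4 to 143), of which 28 were Ccr7, 12 Fscn1 and 2 Ccl22 as medians. Few cells lay at the limit, since 2 cells held exactly 4 UMIs and 6 further cells held 3 UMIs from at least 2 genes and were left out. A further 50 cells held at least 4 UMIs of 1 gene only, and 75 passed the limit of 4 UMIs but not the microglial or Nkg7 limit. No caller for doublets was run, and 7 migratory cells and 83 conventional cells were among the 10% of cells with most UMIs in their pool. The median cell had 7091 RNA UMIs among migratory cells and 11073.5 among conventional cells, and mitochondrial RNA was 0.737% and 1.40% of UMIs.

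Migratory cells were found under hashtags 3 to 6 of all pools, with 1 exception, a single cell under hashtag 2 of pool 2. None was found among 643 and 1937 cells under hashtags 1 and 2 of pool 1 or among 696 under hashtag 1 of pool 2, which allows shares of up to 0.467%, 0.155% and 0.431%, and none among 112 and 239 cells under hashtags 1 and 2 of pool 3 (up to 2.68% and 1.26%). Of cells kept, they made up 0.831%, 1.31%, 1.77% and 0.939% under hashtags 3, 4, 5 and 6 of pool 1, and 2.07%, 1.21%, 4.28% and 1.76% in pool 2. The share under hashtag 5 of pool 2 was the highest, and its exact binomial 95% interval (3.37% to 5.36%) lay above the point values of all other samples. It overlapped the intervals of pool 3 under hashtag 4 (1.39% to 5.25%) and hashtag 6 (0.950% to 3.60%). In pool 3, where 16.1% of barcodes passing the RNA filters had a majority hashtag against 79.2% and 87.5% in pools 1 and 2, hashtags 3 to 6 gave 1, 10, 2 and 10 cells. Of infiltrating cells (migratory, conventional and other), they made up 1.40% to 8.09% under hashtags 3 to 6. By this measure pool 2 under hashtag 5 had 8.09% and pool 3 under hashtag 4 had 8.06%. Such shares depend on the CD11b sort, and intervals and limits cover counting error only.

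**Figure D1:**
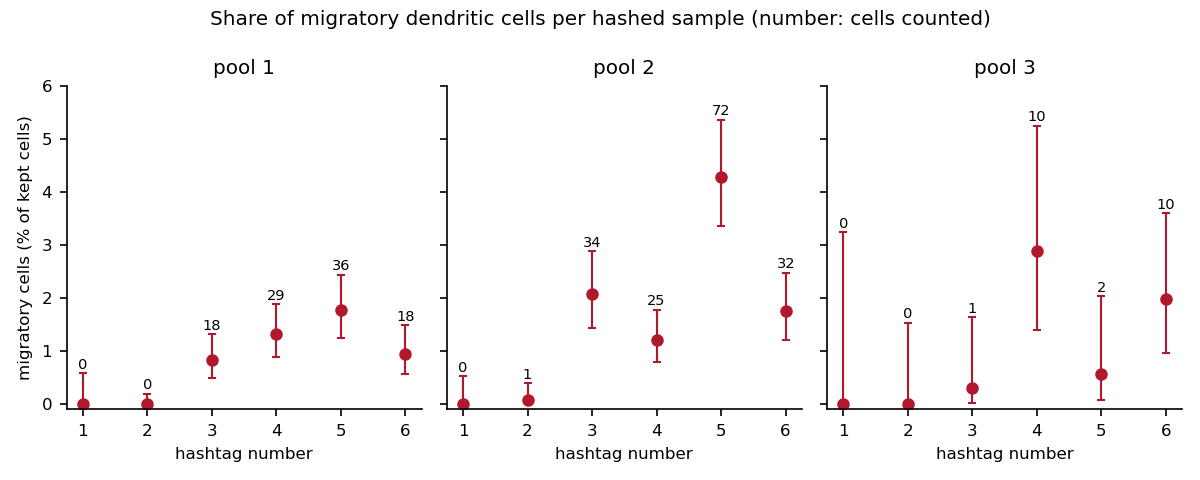
Migratory dendritic cells as a percentage of the cells kept in each hashed sample of the 3 pools (points, with exact binomial 95% intervals); the number above each interval is the count of migratory cells. Samples under hashtags 1 and 2 hold 0 or 1 such cell, and hashtag 5 of pool 2 has the highest share, 4.28%.

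The label was set against markers, which were chosen with earlier results of these data known and so are no independent support. Summed per hashed sample, 14 markers of migratory dendritic cells had a median of 26355 CPM (counts per 1000000 UMIs) in migratory cells. The median was 1371 CPM in conventional and 3894 CPM in other infiltrating cells. None of the 14 is a gene of the rules, but Ccl5, whose levels are given below, makes up much of the sum in migratory and conventional cells. Flt3 or Zbtb46, a receptor and a transcription factor that set dendritic cells apart from macrophages, had a UMI in 195 migratory cells (67.7%) and in 70 conventional cells (24.8%). Markers of other cell types were low in migratory cells: NK, T cell and neutrophil lists summed to at most 27.1 CPM in any sample, and Klrb1c, Gzmb, Prf1 and Eomes were at 0 in all of them. The B cell list had a median of 31.5 CPM and reached 442 CPM in 1 sample, and the monocyte list had medians of 1210 CPM in migratory and 3133 CPM in conventional cells. A list of 9 conventional dendritic cell genes did not set the arms apart, with medians of 627 CPM in migratory and 608 CPM in conventional cells, against 227 CPM in other infiltrating cells. The microglial list, without the genes of the rule, gave medians of 847 and 673 CPM, and the plasmacytoid list 850 and 890 CPM.

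The comparator held more macrophage RNA than the migratory cells. The 12 macrophage markers summed to 376 (lowest), 593 (median) and 3513 (highest) CPM in migratory cells, against 5854, 10117 and 17625 CPM in conventional cells. The highest migratory value stood in the sample of pool 2 under hashtag 4, which also had 2621 CPM of Apoe against 312 CPM or less in migratory cells of the other 7 samples. Of single cells, 226 of 288 migratory and 107 of 282 conventional cells held at most 2 UMIs of the complement genes C1qa, C1qb and C1qc, and 3 and 73 cells held more than 100. In NK cells, which should lack these genes, the median was 1 C1q UMI, the same as in migratory cells (1), against 4 in conventional cells and 140 in microglia. The part of this macrophage RNA in the differences was not tested. Values against conventional cells with at most 2 C1q UMIs, an arm added after seeing the data, are given below as the low-C1q comparison, over 7 samples and 1839 genes. Its minimum was 5 cells per sample, against 10 in the main comparison.

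RNA was compared within 8 hashed samples, hashtags 3 to 6 of pools 1 and 2, with UMIs summed over 264 migratory and 250 conventional cells, and fitted with edgeR's quasi-likelihood test with Benjamini-Hochberg adjustment over all genes. Sums ranged from 87209 to 642131 UMIs per sample in migratory cells and from 119198 to 938326 in conventional cells. Of 2817 genes tested, 942 (33.4%) were higher and 891 (31.6%) were lower in migratory cells at an adjusted p under 0.05 (65.1% in either direction), and 28.4% did not overlap between the arms. Counts for a group of genes are to be read against these shares. In such sums, fewer cells expressing a gene and less RNA per cell cannot be told apart. Levels are in CPM after TMM scaling, folds are log2 of migratory over conventional cells with their standard errors, and the median over all genes was 0.00.

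The genes with the largest folds were nearly absent from conventional cells. Cd200, the ligand of an inhibitory receptor on myeloid cells, had 579.7 (lowest), 958 (median) and 1852 (highest) CPM in migratory cells, against 0, 0 and 4.31 CPM in conventional cells. No sample of one arm overlapped the other (log2 fold change 8.38 ± 0.29 (SE), edgeR adjusted p = 1.6e-12, higher in 8 of 8 samples). Cacnb3, a calcium channel subunit, had 499.6 to 874 CPM in migratory cells and 0 to 4.21 CPM in conventional cells, a log2 fold change of 8.43 ± 0.28. Serpinb6b, an inhibitor of serine proteases, followed at 7.55 ± 0.31, and Tbc1d4, which acts on the Rab proteins of vesicle traffic, at 6.80 ± 0.29. Ly75, the antigen uptake receptor DEC-205, was higher by 6.34 ± 0.33, Ramp3, a partner of peptide hormone receptors, by 6.00 ± 0.29, Adora2a, an adenosine receptor, by 5.79 ± 0.30, and Mmp25, a membrane-bound metalloproteinase, by 5.62 ± 0.33. Each of these was higher in all 8 samples without overlap, and the 7 of these 8 genes fitted in the low-C1q comparison passed the test there too, with Mmp25 not fitted.

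A further 3 genes of this kind had so few UMIs in conventional cells that only a ratio can be given. Nudt17, a nudix hydrolase, had 304 UMIs in migratory and 1 in conventional cells, a CPM ratio of 494 (95% counting interval 88.0 to 19573). Bcl2l14, of the Bcl-2 family, had 540 and 3 UMIs, a ratio of 292 (99.5 to 1423). Fam89a had 152 and 3 UMIs, a ratio of 82.3 (27.6 to 404).

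A list of 20 genes known for migratory dendritic cells, chosen with results of these data known and so no independent support, had 19 members past the filter and Apol7c below it. All 19 were higher, with a median log2 fold change of 4.52. Among them, Ccl5, a chemokine for T cells and NK cells, had 9134 (lowest), 18281 (median) and 30828 (highest) CPM in migratory cells, against 50.6, 844 and 1654 CPM in conventional cells. This was the largest rise among the listed chemokines that were tested, with no overlap (log2 fold change 4.77 ± 0.31 (SE), edgeR adjusted p = 1.8e-09, higher in 8 of 8 samples). Samsn1, an adaptor of lymphocyte signalling, was higher by 4.30 ± 0.17, Birc2, an inhibitor of apoptosis, by 4.41 ± 0.22, Tnfrsf4, which encodes OX40, by 4.52 ± 0.57, and Anxa3, an annexin, by 2.42 ± 0.23. The Anxa3 fold was 4.12 in the low-C1q comparison.

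Co-stimulatory genes gave a smaller rise. Of 12 in the list, 6 passed the filter on low counts, 5 were higher and 1 was lower, with a median log2 fold change of 1.21. Cd83, a maturation marker, had 779.7 (lowest), 1324 (median) and 1744 (highest) CPM in migratory cells, against 122, 396 and 585 CPM in conventional cells, and the arms did not overlap (log2 fold change 1.94 ± 0.25 (SE), edgeR adjusted p = 3.4e-06, higher in 8 of 8 samples). Cd80, a ligand of Cd28 on T cells, was higher by 1.95 ± 0.19, Cd40, the receptor through which T cells license dendritic cells, by 1.41 ± 0.18, Tnfsf9, the ligand of 4-1BB, by 1.0 ± 0.37 and Cd86, the other ligand of Cd28, by 0.68 ± 0.18. Cd86 and Tnfsf9 no longer passed in the low-C1q comparison, at 0.43 (edgeR adjusted p = 0.12) and 0.15 (edgeR adjusted p = 0.69), while Cd83 and Cd40 did, at 1.35 and 0.89, and Cd80 was not fitted. Cd48, an adhesion ligand of lymphocytes, was lower in all samples, at -2.30 ± 0.19.

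Among 18 regulatory ligands and enzymes, 13 passed the filter, 7 were higher and 6 lower. Cd274, which encodes PD-L1, had 512 (lowest), 591 (median) and 728 (highest) CPM in migratory cells, against 71.5, 107 and 178 CPM in conventional cells. Every migratory sample lay above every conventional one, with a low-C1q value of 2.53 (log2 fold change 2.52 ± 0.17 (SE), edgeR adjusted p = 2.0e-09, higher in 8 of 8 samples). Pdcd1lg2, which encodes PD-L2, was higher by 2.28 ± 0.16, also without overlap. Il4i1, an enzyme that consumes aromatic amino acids, had 602 to 1635 CPM in migratory cells and 0 to 80 CPM in conventional cells, a fold of 6.17 ± 0.34. Socs2, an inhibitor of cytokine signalling, was higher by 4.56 ± 0.24, Fas, the death receptor, by 3.05 ± 0.25, and Ebi3, a subunit of interleukin-27 and interleukin-35, by 1.05 ± 0.27. Those lower were Lgals9 (-2.42 ± 0.19), Havcr2 (-2.23 ± 0.28), Vsir (-2.01 ± 0.29), Tgfb1 (-1.31 ± 0.18), Socs3 (-0.54 ± 0.20) and Socs1 (-0.52 ± 0.18). Lgals9 is a galectin that binds Tim-3, Havcr2 encodes Tim-3, Vsir encodes the checkpoint protein VISTA and Tgfb1 a suppressive cytokine. Aldh1a2, which makes retinoic acid, was below the filter and was found in few cells: 29 of 288 migratory (10.1%, 95% interval 6.85% to 14.1%) and 2 of 282 conventional cells (0.709%, 0.0860% to 2.54%). With cells thinned to 2000 UMIs the shares were 3.60% of 278 migratory cells and 0 of 279 conventional cells, which allows up to 1.08%. Microglia, which should lack it, had 0.0766% before thinning, at a median of 5190.5 UMIs.

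**Figure D2:**
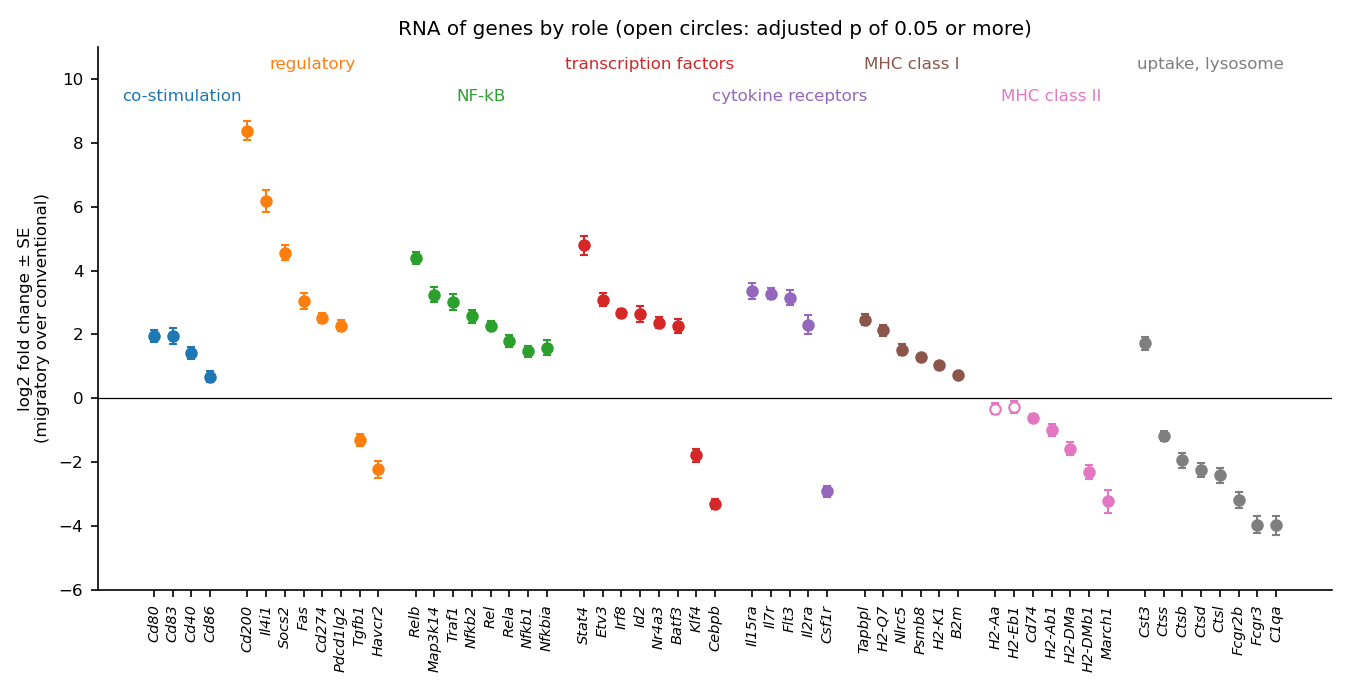
Log2 fold change of RNA, migratory over conventional cells, with its standard error over 8 hashed samples (edgeR), for genes grouped by role; open circles did not pass an adjusted p of 0.05. The plotted co-stimulatory, NF-kB and MHC class I genes lie above 0, and the plotted MHC class II genes lie below it. This follows in part from the choice of genes. Cd48, a co-stimulatory gene that was lower, is not plotted. Nor are the class II genes H2-Ob, H2-DMb2 and H2-Oa, whose folds were above 0. Cst3 stands for the 4 lysosomal genes that were higher.

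Genes of the NF-kB pathway, the signalling route by which Cd40 and pathogen sensors drive maturation, were higher almost as a whole. Of 18 listed, 16 passed the filter, 15 were higher and none was lower, with a median log2 fold change of 1.62. Relb, the subunit of the non-canonical branch, had 686 (lowest), 782 (median) and 1166 (highest) CPM in migratory cells, against 16.7, 39.6 and 73.8 CPM in conventional cells. The arms did not overlap (log2 fold change 4.39 ± 0.18 (SE), edgeR adjusted p = 1.1e-11, higher in 8 of 8 samples). Its partner Nfkb2 was higher by 2.57 ± 0.20, Map3k14, the kinase that starts this branch, by 3.25 ± 0.23, and Traf1, an adaptor of TNF receptors, by 3.02 ± 0.25. Of the canonical subunits, Rel was higher by 2.27 ± 0.14, Rela by 1.80 ± 0.18 and Nfkb1 by 1.47 ± 0.16. Of inhibitors in the list, Nfkbib was higher by 1.95 ± 0.15, Nfkbia by 1.59 ± 0.23 and Tnfaip3 by 0.96 ± 0.24. In the low-C1q comparison 11 of the 14 called genes fitted kept their call, and Bcl3, Tnfaip3 and Tnip3 did not. Nfkbiz was at 0.18 ± 0.36 (edgeR adjusted p = 0.69).

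Promoters of this list are shown because its members moved together and the pathway's own factors bind a known motif. The motif searched was GGG, any 2 bases (NN) and TTTCC in a row, or its reverse complement GGAAA, NN and CCC, in the 250 bases before each gene's start in RefSeq (GRCm38.p6), taking the most upstream start. A match was found in 381 of 27025 promoters (1.41%), in 46 of 2242 genes fitted (2.05%), in 25 of 754 genes that were higher (3.32%), in 11 of 700 that were lower (1.57%), and in 5 of the 15 promoters given for the list. A match describes letters and shows no binding. The promoters of Nfkb2 (chr19:46304487-46304736, plus strand), Rel (chr11:23770970-23771219, minus strand), Nfkbia (chr12:55492648-55492897, minus strand) and Tnfaip3 (chr10:19015411-19015660, minus strand) are printed 5′ to 3′ on the gene's strand with the match in capitals. The fifth match was in Traf3, which was below the filter on low counts. The first base of the match lies 11 bases before the start in Nfkb2, 12 in Tnfaip3, 29 in Nfkbia and 91 in Rel.
Nfkb2: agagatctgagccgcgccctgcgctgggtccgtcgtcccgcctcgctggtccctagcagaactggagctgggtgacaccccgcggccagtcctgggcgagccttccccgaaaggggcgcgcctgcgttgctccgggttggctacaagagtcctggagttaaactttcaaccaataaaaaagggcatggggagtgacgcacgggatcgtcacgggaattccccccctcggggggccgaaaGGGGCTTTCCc
Rel: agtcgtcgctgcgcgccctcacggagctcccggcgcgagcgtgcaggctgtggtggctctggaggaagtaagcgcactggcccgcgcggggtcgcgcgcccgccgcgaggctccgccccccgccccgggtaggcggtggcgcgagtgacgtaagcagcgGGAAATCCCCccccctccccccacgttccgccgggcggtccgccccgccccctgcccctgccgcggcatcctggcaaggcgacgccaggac
Nfkbia: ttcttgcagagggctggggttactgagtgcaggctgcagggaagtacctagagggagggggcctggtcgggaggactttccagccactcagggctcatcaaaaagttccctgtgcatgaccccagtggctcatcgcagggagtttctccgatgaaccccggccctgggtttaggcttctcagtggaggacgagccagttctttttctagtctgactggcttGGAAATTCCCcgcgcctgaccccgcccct
Tnfaip3: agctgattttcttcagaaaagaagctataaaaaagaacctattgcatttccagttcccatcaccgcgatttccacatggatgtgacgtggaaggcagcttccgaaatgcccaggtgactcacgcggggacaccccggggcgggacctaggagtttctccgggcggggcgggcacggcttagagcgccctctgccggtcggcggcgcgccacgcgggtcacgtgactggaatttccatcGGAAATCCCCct

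Transcription factors of dendritic cells divided. Of 20 listed, 17 passed the filter, 9 were higher and 5 lower. Stat4, which acts below interleukin-12, had 412 (lowest), 493 (median) and 741 (highest) CPM in migratory cells, against 0, 14.5 and 53.6 CPM in conventional cells. It was higher by 4.78 ± 0.30, without overlap. Irf8, needed for type 1 conventional dendritic cells, was higher by 2.68 ± 0.13, Batf3, of the same lineage, by 2.27 ± 0.22, Id2 by 2.64 ± 0.24, Etv3 by 3.09 ± 0.19 and Zbtb46 by 2.86 ± 0.37. Factors of monocytes and macrophages were lower, with Cebpb at -3.31 ± 0.16, Zeb2 at -2.12 ± 0.21 and Klf4 at -1.79 ± 0.20. The type 1 list gave no fuller account, since 7 of its 9 genes were below the filter, and Xcr1 or Clec9a had a UMI in 13 migratory (4.51%) and 16 conventional cells (5.67%). Of the type 2 list, all 4 genes that passed the filter were lower: Itgam, Klf4, Clec10a and Sirpa. By the rule the conventional cells held Mgl2 or Cd209a, which also mark type 2 cells, so these folds are tied to the choice of comparator. At least 3 UMIs of Mgl2 and Cd209a were held by 11 of the 288 migratory cells as well. Against other infiltrating cells Clec10a was higher, by 1.81 ± 0.35, in 5 of 10 samples. Itgam, Sirpa and Klf4 were lower there too, and Notch2 did not pass.

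Genes of the list on cell survival were higher in 8 of the 10 that passed the filter, and 1 of the 8, Bcl2l11 (0.68 ± 0.20), encodes Bim, which promotes cell death. Bcl2l11 did not pass in the low-C1q comparison, at 0.29 (edgeR adjusted p = 0.33). Serpinb9, an inhibitor of granzyme B, had 596 (lowest), 751 (median) and 980.4 (highest) CPM in migratory cells, against 6.15, 18.0 and 44.7 CPM in conventional cells. This was a fold of 5.14 ± 0.23, with no overlap. Bcl2a1d and Bcl2a1b, near-identical copies whose UMIs may be split between them, were higher by 2.21 ± 0.15 and 2.01 ± 0.12, and Cflar, which blocks death receptor signalling, by 1.89 ± 0.22. Mcl1 was at 0.00 ± 0.12 (edgeR adjusted p = 0.98) and Bax at -0.31 ± 0.16 (edgeR adjusted p = 0.10).

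Chemokines moved in both directions. Of 18 listed, 12 passed the filter, 4 were higher and 8 lower, with a median log2 fold change of -2.63. In the low-C1q comparison 6 were fitted, 4 higher and 2 lower, all 6 with the same call. Beside Ccl5, Cxcl16, the ligand of Cxcr6, was higher by 1.57 ± 0.15 with no overlap. Ccl17, like Ccl22 a ligand of Ccr4, had 0 (lowest), 476 (median) and 2382 (highest) CPM in migratory cells, against 17.9, 45.7 and 636 CPM in conventional cells. It was higher in 7 of 8 samples by 1.99 ± 0.31 (edgeR adjusted p = 3.4e-05), and no UMI was found in the migratory cells of pool 2 under hashtag 4. Ccl17 had a UMI in 120 migratory (41.7%) and 67 conventional cells (23.8%), or 27.3% and 13.3% with cells thinned, and in 0.579% of microglia. Cxcl9 and Cxcl10, both ligands of Cxcr3 on T cells, differed: Cxcl9 was higher by 0.59 ± 0.23 (edgeR adjusted p = 0.030) and Cxcl10 lower, at -0.68 ± 0.24 (edgeR adjusted p = 0.020). Their levels overlapped widely between the arms.

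The chemokines that attract monocytes and neutrophils were lower in migratory than in conventional cells. Cxcl2, Ccl2, Ccl12, Ccl6, Ccl3 and the receptor gene Ccr2 were not fitted in the low-C1q comparison, while Ccl4 was, at -2.42. Cxcl2, which draws neutrophils, had 0 (lowest), 20 (median) and 83.9 (highest) CPM in migratory cells, against 579.7, 1063 and 2238 CPM in conventional cells. The arms did not overlap, and the fold was -5.15 ± 0.36. Ccl2 and Ccl12, ligands of Ccr2, were lower, at -4.12 ± 0.33 and -4.27 ± 0.31, and so was Ccl6, at -4.04 ± 0.25. Ccl3, at -3.25 ± 0.28, and Ccl4, at -2.46 ± 0.52, are similar genes whose reads are hard to tell apart. Ccr2 itself, the receptor that brings monocytes into tissue, had 0 to 24.7 CPM in migratory cells and 123 to 545 CPM in conventional cells, a fold of -5.23 ± 0.33. Ccr1 and Cx3cr1 were lower as well, while Gpr183, which guides cells along oxysterols, was higher by 1.47 ± 0.16. Cxcr4 was at 0.49 ± 0.21 (edgeR adjusted p = 0.055) and Ccrl2 at 0.02 ± 0.26 (edgeR adjusted p = 0.95), and the other 7 of the 14 listed receptors were below the filter.

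**Figure D3:**
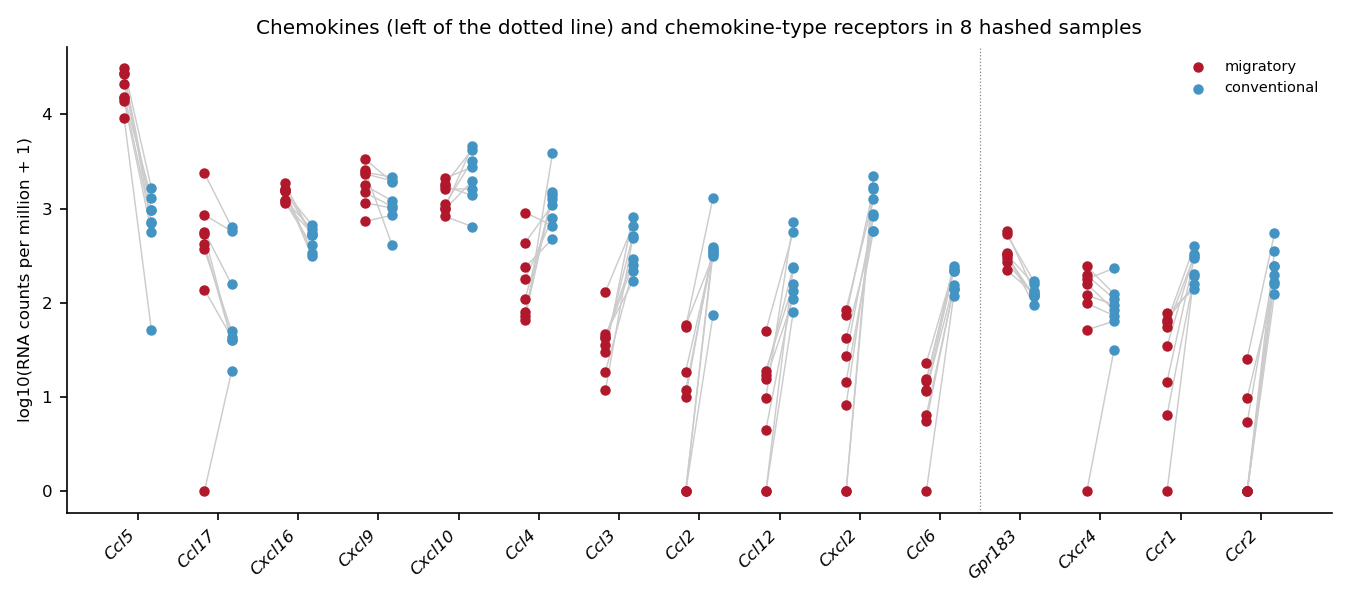
RNA level, log10 of CPM plus 1, of chemokines (left of the dotted line) and chemokine-type receptors in migratory (red) and conventional (blue) cells of the same 8 hashed samples, joined by lines. Ccl5 and Cxcl16 lie above and Cxcl2, Ccl2, Ccl12, Ccl6 and Ccr2 lie below the conventional cells in every sample.

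Of cytokine genes, Il15, which sustains NK cells and memory T cells, had 92.7 (lowest), 122 (median) and 174 (highest) CPM in migratory cells, against 7.72, 29.0 and 59.1 CPM in conventional cells. It was higher by 2.35 ± 0.25, and Il15ra, the receptor chain that presents it to other cells, by 3.35 ± 0.26, both without overlap. Il1b, at -0.31 ± 0.21 (edgeR adjusted p = 0.21), and Tnf, at 0.58 ± 0.54 (edgeR adjusted p = 0.36), did not pass. Il12b, a subunit of interleukin-12, was below the filter and had a UMI in 23 of 288 migratory (7.99%, 95% interval 5.13% to 11.7%) and 2 of 282 conventional cells (0.709%, 0.0860% to 2.54%), against 0.417% of microglia. In thinned cells the shares were 4.68% of migratory and 0 of 279 conventional cells, which allows up to 1.08%. Of 15 cytokine receptor genes past the filter 7 were higher, among them Il7r (3.27 ± 0.17), Flt3 (3.15 ± 0.24), Il2ra (2.31 ± 0.29) and Il21r (1.73 ± 0.15). Csf1r, the receptor on which macrophages depend, was the lowest of the 5 that were lower, at -2.92 ± 0.18.

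Genes of the cytoskeleton were higher in 12 of 21 past the filter and lower in 4. Tspan3, a tetraspanin, was higher by 4.96 ± 0.17, Cdc42ep3, an effector of Cdc42, by 3.89 ± 0.21, Myo1g, a myosin, by 3.55 ± 0.21, Swap70, a Rac regulator, by 3.24 ± 0.21, and Marcks, which links actin to the membrane, by 3.02 ± 0.15. Actb itself had 17519 to 26609.5 CPM in migratory cells and 5736 to 10395 CPM in conventional cells, a fold of 1.53 ± 0.12. Itga4, which encodes CD49d, was higher by 2.39 ± 0.21, while the integrin gene Itgb7 was lower, at -2.43 ± 0.22, and so was Itgam, which encodes CD11b, at -3.65 ± 0.26.

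Class I presentation was higher almost throughout: 12 of 13 genes past the filter, none lower, median log2 fold change 1.03. B2m, the light chain of class I molecules, had 3692 (lowest), 4858 (median) and 5189.9 (highest) CPM in migratory cells, against 2121, 2701 and 3529 CPM in conventional cells. The arms did not overlap, although the fold was only 0.73 ± 0.10. Tapbpl, a peptide editor, was higher by 2.47 ± 0.18, Nlrc5, which drives transcription of class I genes, by 1.52 ± 0.17, and the immunoproteasome subunit Psmb8 by 1.30 ± 0.09. H2-Q7 (2.13 ± 0.17), H2-K1 (1.03 ± 0.10) and H2-D1 (0.85 ± 0.09) belong to a family of near-identical genes, so the split between them is uncertain.

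Class II RNA was mostly lower or did not pass. Of 12 genes past the filter, 1 was higher (H2-Ob, 0.72 ± 0.24), 6 were lower and 5 did not pass, with a median of -0.57. H2-Ab1, the beta chain of I-A, had 2332 (lowest), 5869.7 (median) and 10409 (highest) CPM in migratory cells, against 8368, 10706 and 13696 CPM in conventional cells. It was lower within all 8 samples (log2 fold change -0.99 ± 0.20 (SE), edgeR adjusted p = 3.3e-04, lower in 8 of 8 samples), although the ranges overlap. H2-Aa (-0.32 ± 0.17, edgeR adjusted p = 0.10), H2-Eb1 (-0.27 ± 0.18, edgeR adjusted p = 0.19) and the class II activator Ciita (-0.51 ± 0.25, edgeR adjusted p = 0.081) did not pass. Cd74, the invariant chain, was lower, at -0.62 ± 0.14. The genes that load peptide onto class II were lower by more, H2-DMa at -1.58 ± 0.19 and H2-DMb1 at -2.32 ± 0.21, and Ctss, the protease that cuts the invariant chain, at -1.17 ± 0.15. H2-DMb1 and H2-DMb2 are similar copies, and H2-DMb2 was at 0.37 ± 0.21 (edgeR adjusted p = 0.14). March1, the ligase that marks class II for removal from the surface, had 0 (lowest), 7.20 (median) and 16.3 (highest) CPM in migratory cells, against 46.3, 64.9 and 116 CPM in conventional cells. Its fold was -3.22 ± 0.36, with no overlap. In the low-C1q comparison H2-Ab1, H2-DMa, H2-DMb1, Cd74 and Ctss, the 5 called class II genes fitted there, kept their call. March1 and H2-Ob were not fitted there.

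The MHCII protein tag went the other way from this RNA. The median migratory cell carried 17949, 10997.5 and 11855 MHCII tag UMIs in pools 1, 2 and 3, the median conventional cell 2245.5, 1456 and 1058, and the median microglial cell 37, 32 and 22. NK cells, which should lack class II, had medians of 23, 20 and 21. As a centred log ratio, which sets the natural log of a tag against the mean over the cell's 10 protein tags, MHCII averaged 3.64 (lowest), 3.80 (median) and 4.05 (highest) over the migratory cells of the 8 samples, against 1.63, 2.09 and 2.39 over the conventional cells. No sample overlapped. The within-sample difference was 1.74 (range 1.26 to 2.17), higher in 8 of 8 samples (exact sign permutation test, two-sided, adjusted p = 0.013 over 10 tags, from the smallest p that 8 pairs allow, 0.0078).

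**Figure D4:**
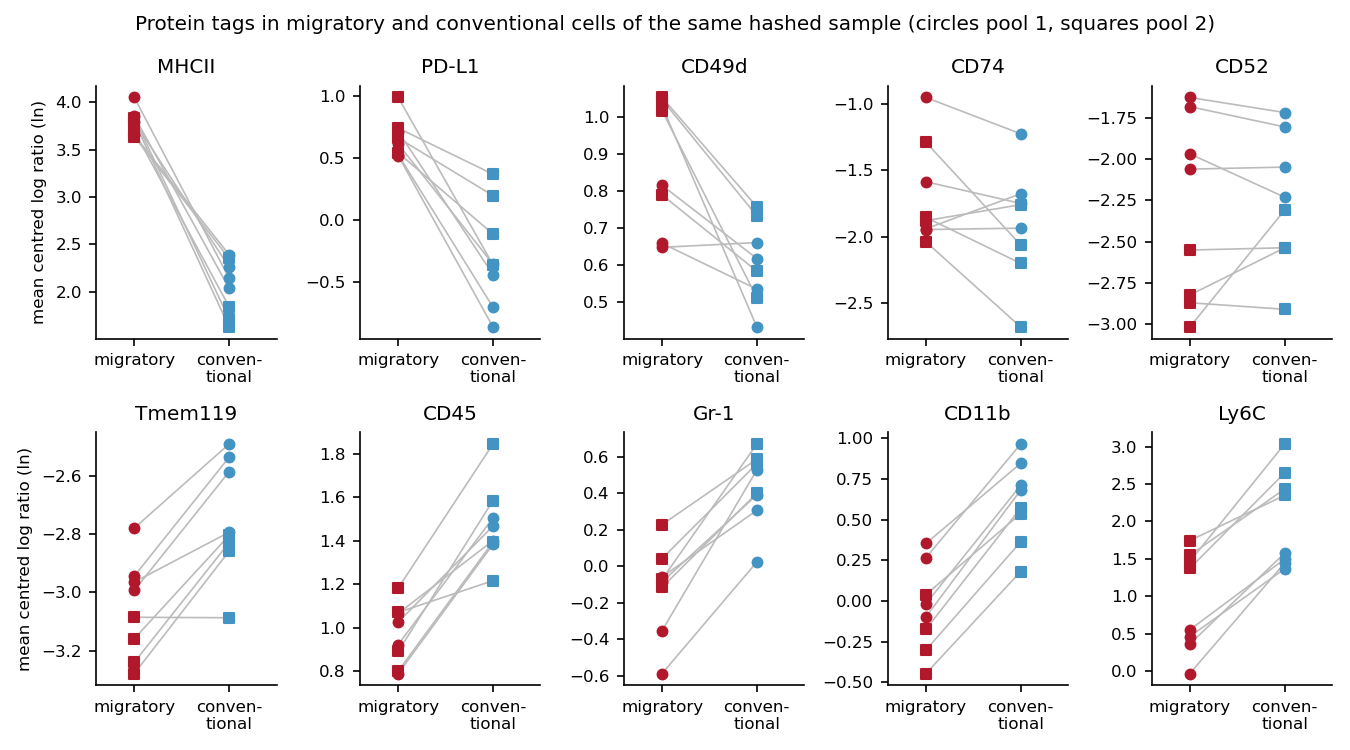
Mean centred log ratio of the 10 protein tags in migratory (red, left) and conventional (blue, right) cells of 8 hashed samples joined by lines, circles for pool 1 and squares for pool 2; each panel has its own scale. MHCII, PD-L1 and CD45 do not overlap between the arms, while CD52 and CD74 show no common direction.

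PD-L1 was the other tag above its conventional range. It averaged 0.52, 0.64 and 0.99 (lowest, median and highest centred log ratio) in migratory cells, against -0.86, -0.36 and 0.37 in conventional cells. The difference was 0.95 (0.37 to 1.38), in 8 of 8 samples (exact test, adjusted p = 0.013), and the RNA of Cd274 moved the same way. Median PD-L1 tag UMIs per cell were 694, 550 and 633 in migratory cells of the 3 pools, against 97.5, 197 and 159 in conventional cells. Cd274 RNA had a UMI in 258 migratory (89.6%) and 134 conventional cells (47.5%), or 61.9% and 14.7% of thinned cells, beside 16% of microglia. Against low-C1q cells the PD-L1 difference was 1.28 and the MHCII difference 1.58 (both exact adjusted p = 0.026 over 7 samples).

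Of the 10 tags, 3 were higher (30%) and 5 lower (50%) in migratory cells (80% in either direction), and 3 (30%) did not overlap. CD49d was higher by 0.28 in 7 of 8 samples (exact adjusted p = 0.020), as was its RNA, but was lower by 0.36 on the log2 scale of counts per 1000 tags (exact adjusted p = 0.043). It also missed the threshold against low-C1q cells, at 0.20 (exact adjusted p = 0.059). CD11b fell by 0.65, Ly6C by 1.11, Gr-1 by 0.56 and CD45 by 0.51 on the centred log scale, each in 8 of 8 samples (exact adjusted p = 0.013), and Tmem119 by 0.31 in 7 of 8 (exact adjusted p = 0.020). On raw log2 tag counts Ly6C kept its call at -1.02, but CD11b (-0.36, adjusted p = 0.052), CD45 (-0.15, adjusted p = 0.52) and Gr-1 (-0.23, adjusted p = 0.39) did not pass in the exact test, and Tmem119 was at 0.14 (adjusted p = 0.43). RNA was lower for Itgam (-3.65 ± 0.26), Ptprc, which encodes CD45 (-0.76 ± 0.16), and Ly6c2 (-2.26 ± 0.30). CD74 (0.23, adjusted p = 0.15) and CD52 (-0.06, adjusted p = 0.69) did not pass in the exact test, while RNA of Cd74 and of Cd52 (-0.56 ± 0.12) was lower. On raw log2 counts CD74 was higher by 0.91 (exact adjusted p = 0.016). Itgam RNA, which encodes CD11b, had 0 (lowest), 8.04 (median) and 10.9 (highest) CPM in migratory cells, against 73.8, 105 and 169.7 CPM in conventional cells. The CD11b tag had medians of 421, 193.5 and 147 UMIs in migratory cells of pools 1, 2 and 3, against 451.5, 311 and 149 in conventional cells, with 110, 63 and 34.5 in NK cells. The CCR2 tag, read in pools 2 and 3 only, averaged lower in migratory than in conventional cells in each of the 4 samples with both arms, by the mean log2 count, with no test made. By the median count it was lower in 3 of the 4, with 41.5 UMIs in migratory and 38 in conventional cells of pool 2 under hashtag 5.

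Among the migratory cells of each pool, H2-Ab1 RNA was split while the MHCII tag was not. This pattern was chosen after its values were seen and is given with no test. The hashed samples of a pool were not separated here. Migratory H2-Ab1 and Ccl5 levels also differed between hashed samples, as given above. The part of such sample differences in the values below was not tested. With cells thinned to 2000 UMIs, the quartiles of H2-Ab1 were 0 and 19 UMIs in pool 1 and 0 and 16.75 in pool 2. The 31 and 57 migratory cells of pools 1 and 2 with no H2-Ab1 UMI had median MHCII tags of 18271 and 12062 UMIs, and the 44 and 59 cells with at least 10 had 18554.5 and 9078. In conventional cells the tag went with the RNA: 76.5 and 95.5 tag UMIs in the 6 and 8 cells with no H2-Ab1 UMI, and 2566.5 and 2000.5 in the 94 and 128 cells with at least 10. The migratory cells without H2-Ab1 RNA had more PD-L1 tag, with medians of 851 and 815 UMIs against 473 and 298 in those with at least 10, and more Fscn1, with thinned means of 6.03 and 6.63 UMIs against 1.61 and 2.19. They also had more Ccl5, with means of 43.9 and 37.0 thinned UMIs against 25.9 and 21.1. Ccl22 went the other way, with means of 0.355 and 1.14 against 1.91 and 1.56. Fscn1 and Ccl22 are genes of the selection, so their values are tied to the rule.

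**Figure D5:**
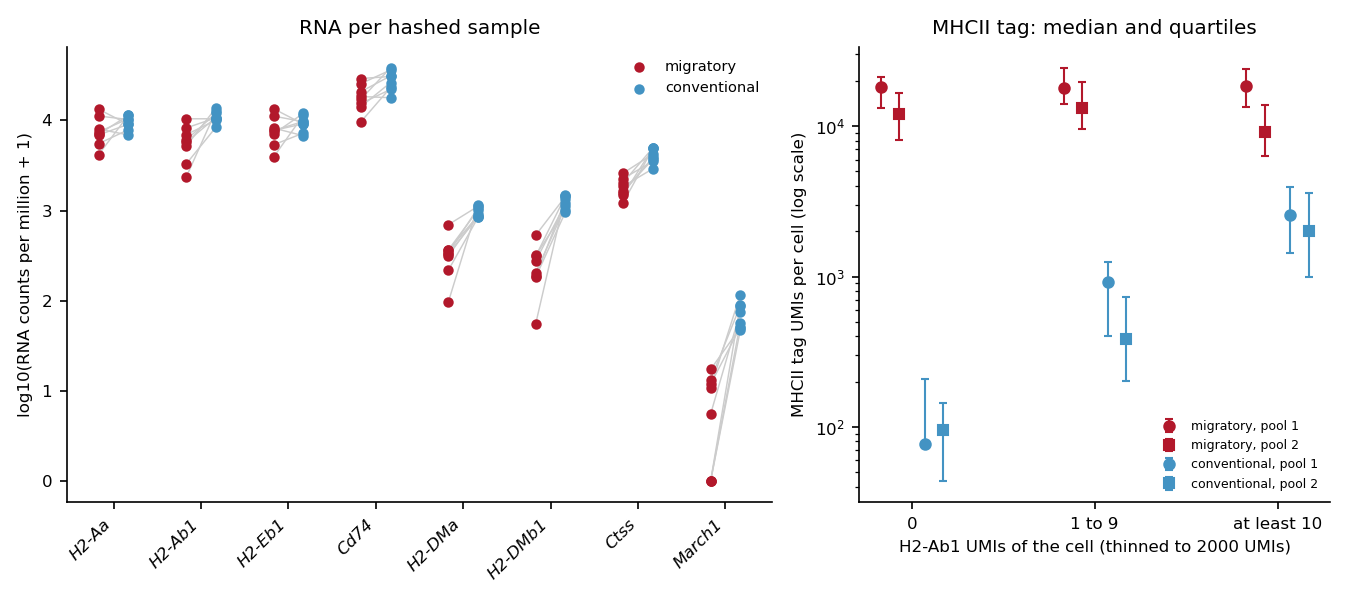
Left, RNA levels (log10 of CPM plus 1) of class II genes in migratory (red) and conventional (blue) cells of 8 hashed samples, joined by lines. Right, median MHCII tag UMIs per cell with quartiles on a log axis, for cells with 0, 1 to 9 or at least 10 H2-Ab1 UMIs after thinning to 2000 UMIs, by pool (circles pool 1, squares pool 2); the lowest migratory median is 9078, and in conventional cells the tag climbs with H2-Ab1.

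Other genes varied strongly over the migratory cells of a pool, by the ratio of variance to mean in thinned cells. The hashed samples of a pool were not separated, so differences between samples are part of this ratio. The ratio was not adjusted for the level of a gene. Among the genes named below, thinned means in pools 1 and 2 were 131 and 112 UMIs for Tmsb4x, but 1.51 and 1.48 for Ifitm1. A thinned mean of at least 0.2 UMIs in both pools was met by 1119 genes, whose median ratio was 1.11. Mitochondrial and ribosomal protein genes, genes named only Gm and Malat1 were left out of the ranking, which used the smaller ratio of the 2 pools. Among the rest, Ccl5 ranked first, with a variance of 35.6 and 33.9 times the mean in pools 1 and 2. Its quartiles were 10 and 51.75 UMIs in pool 1 and 5.5 and 41 in pool 2. Next came Cd74, Cst3, H2-Ab1, Tmsb4x, H2-Eb1 and Cxcl9, and then Fabp5, a fatty acid carrier, and Ifitm1, an interferon-induced membrane protein. Cxcl9 was found in 123 and Cxcl10 in 99 of 278 thinned migratory cells, with 76 holding both, which is 61.8% of the first set and 76.8% of the second. Of 279 conventional cells, 88 and 95 held them and 46 both. Dividing cells were few, with Mki67 or Top2a in 18 migratory (6.25%) and 30 conventional cells (10.6%), or 1.44% and 1.79% when thinned.

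All 10 Fc receptor and phagocytosis genes past the filter were lower, with a median of -2.11. Fcgr3, a low-affinity IgG receptor, had 0 (lowest), 27.2 (median) and 49.4 (highest) CPM in migratory cells, against 261, 449 and 695 CPM in conventional cells, a fold of -3.96 ± 0.28 with no overlap, and Fcer1g, the signalling chain, was at -2.23 ± 0.14. Of pattern recognition genes 15 of 21 measured were below the filter and 5 of the 6 others were lower, among them Cd14, the co-receptor for lipopolysaccharide, at -4.37 ± 0.26, and the lectin gene Clec4a2 at -4.68 ± 0.37, which resembles Clec4a3. All 8 genes of complement and its receptors past the filter were lower, among them C1qa at -3.97 ± 0.30, the RNA by which the comparator was split above.

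Of 18 lysosomal genes past the filter, 11 were lower and 4 higher. Ctsd, a lysosomal protease, was at -2.24 ± 0.23, Ctsb at -1.93 ± 0.23 and Ctsl at -2.41 ± 0.23, while Cst3, the inhibitor cystatin C, had 17416 (lowest), 26349.7 (median) and 38044 (highest) CPM in migratory cells, against 4694, 7502 and 12208 CPM in conventional cells. Cst3 was higher by 1.72 ± 0.19, without overlap, and Cd63, a tetraspanin of late endosomes, by 2.54 ± 0.29. In the low-C1q comparison 7 of 17 were higher and 10 lower, and the values were -1.25 for Ctsd, -0.92 for Ctsb and 5.09 for Cd63. Apoe, the carrier of lipids, was at -4.11 ± 0.39 and was -2.20 in the low-C1q comparison. Against conventional cells with a UMI of Flt3 or Zbtb46, also an arm added after seeing the data, Apoe was at -0.61 and did not pass (edgeR adjusted p = 0.48). The minimum for that arm was only 3 cells per sample. Lyz2, lysozyme, was at -4.76 ± 0.29, and Fn1 (-4.65 ± 0.37), Egr2 (-4.63 ± 0.34) and Qpct (-4.39 ± 0.32) complete the genes with the lowest folds. Fabp5 was higher by 4.83 ± 0.24.

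Interferon-induced genes were mixed, with 8 of 19 higher, 2 lower and a median of 0.18, and the balance turned in the low-C1q comparison. There 6 of the 19 were higher and 9 lower, with a median of -0.32, as Oasl2 and Stat2 lost their call and Ifit1 (-0.73), Ifit2 (-1.06), Isg20 (-1.05), Usp18 (-0.70), Igtp (-0.56), Irgm1 (-0.56) and Ifi205 (-0.46) were lower. Isg15, a ubiquitin-like modifier, was higher by 1.49 ± 0.16 and Gbp5, a guanylate-binding protein, by 1.56 ± 0.19, both without overlap, while Ifit3 (-0.94 ± 0.27) and Rsad2 (-0.78 ± 0.28) were lower. Of glycolysis and hypoxia genes, none of the 9 past the filter was higher and 6 were lower, among them Slc2a1, the glucose transporter, at -2.06 ± 0.23 and Ldha at -1.35 ± 0.17. Genes that tissue dissociation is known to induce were lower in 10 of 14, with Fos at -2.40 ± 0.21 and Egr1 at -2.47 ± 0.43, and none was higher. The part of handling in these values was not tested.

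The same cells were set against the other infiltrating cells of 10 hashed samples (284 and 7518 cells). Of 5683 genes tested, 1493 (26.3%) were higher and 1897 (33.4%) lower (59.7% in either direction), 19.6% without overlap. The migratory arm is the same in both comparisons, so the values are given side by side and their likeness is no result. Flt3 was higher by 5.90 ± 0.22 against other infiltrating cells and by 3.15 ± 0.24 against conventional cells, Stat4 by 6.61 ± 0.16 and 4.78 ± 0.30, and Ccl17 by 5.25 ± 0.35 and 1.99 ± 0.31. Ccl5 was higher by 2.61 ± 0.19 and 4.77 ± 0.31, and Cd274 by 1.77 ± 0.13 and 2.52 ± 0.17. H2-Oa and H2-DMb2, of the peptide-loading machinery, were higher against other infiltrating cells, by 2.08 ± 0.28 and 2.40 ± 0.25, and were at 0.09 ± 0.31 and 0.37 ± 0.21 against conventional cells, where neither passed. H2-Ab1 was lower against both, at -0.78 ± 0.29 and -0.99 ± 0.20, and H2-Aa was at 0.00 ± 0.23 (edgeR adjusted p = 0.99) against other infiltrating cells. Of 14 pattern recognition genes past the filter there, 13 were lower, among them Tlr7 (-3.87 ± 0.46), and of 18 NF-kB genes 17 were higher.

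Against the other infiltrating cells 4 tags were higher (40%) and 5 lower (50%; 90% in either direction), each in 10 of 10 samples (exact sign permutation test, adjusted p = 0.0022). MHCII was higher by 2.84 without overlap, and PD-L1 by 0.57, CD74 by 0.55 and CD49d by 0.41. On counts per 1000 tags the PD-L1 difference was 0.15 (exact adjusted p = 0.47) and CD49d turned to -0.06. Ly6C fell by 1.66, Gr-1 by 1.09, CD11b by 0.82, CD45 by 0.34 and Tmem119 by 0.28, and CD52 was at -0.20 (exact adjusted p = 0.16).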

How the data were processed

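Cells came from 3 pools, each with an RNA and an antibody library. The deposited values are UMI counts of each gene or antibody in each cell, with no normalization, written by Cell Ranger 3.1.0 (pool 1) and 4.0.0 (pools 2 and 3) per the file headers. The submitters' processing notes name bcl2fastq 2.20.0.422, Seurat 3, the mm10 build and both Cell Ranger 4.0.0 and 3.0.1. The matrices held 13925, 11010 and 11820 barcodes with 74848339, 107880924 and 71510276 RNA UMIs.

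Cells were kept with at least 500 RNA UMIs, under 10% mitochondrial UMIs and at least 80% of hashtag UMIs from 1 of hashtags 1 to 6, which removes most doublets across samples but not within one. Pairs of pools shared 19, 5 and 20 cell barcodes, none of them of a migratory cell. Conventional cells were given the microglial and Nkg7 limits of the migratory cells, and the wider rule is among the alternatives. UMIs were summed per class and hashed sample with at least 10 cells in each class, and edgeR 4.0.16 (limma 3.58.1, R 4.3.3) fitted class with the hashed sample as a block, after its filter on low counts and TMM scaling. Both classes came from the same hashed sample, which is the pairing. Tags were compared by mean centred log ratio (natural log, pseudocount 1) with exact two-sided sign permutation tests in Python 3.11.15 with scipy 1.17.1. In counts simulated for the same samples, genes changed by 1 and 2 log2 units were recovered at 96.8% and 100% against conventional cells (2773 genes). Against other infiltrating cells (5513 genes) the shares were 91.5% and 100%. False calls were 2.15% and 3.74% of calls. Few genes were changed there, evenly up and down, and both classes of a sample shared its effect. The simulation therefore does not show recovery or error rates where 65.1% of genes are called, as against conventional cells here. The genes named first are the 12 with the highest and the 12 with the lowest folds that passed, averaged at least 50 CPM in 1 class and moved the same way in every sample, without genes of the rules, mitochondrial and ribosomal protein genes and unnamed genes. Of each list, genes are named by the size of the fold, with others by their role, and genes of the tags are named. The migratory cells, gene lists and markers were chosen with earlier results of these data known. Genes of the cell rules were described and not tested, and Aldoa, Clec6a, Clec7a and Ifi30, which the 3 matrices do not all list, are not analysed here. Alternatives were another scaling or test (DESeq2 1.42.0), no filter, no block, other cell minimums, thinned cells, other hashtag limits, stricter members, and each pool left out. A few genes of the lists are counted there but are not reported here by name.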

Additional observations from a re-analysis of the deposited data

Results flagged for a closer look

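For Clec4a2 RNA, the log2 difference of migratory from conventional cells was -4.38 in pool 2 under hashtag 4, while the 7 other samples lay between -3.40 and -2.77. Clec4a2 was at 0 CPM in the migratory cells of this sample and in those of 4 others, so the difference is set by the offset added before the log and by the conventional level, which was 134 CPM here, the highest of the 8, from 10 cells. Of 47 such sets of within-sample differences examined, this was the 1 in which a single sample stood apart by Dixon's test, and chance gives about 1 in 20.

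Among 14057 cell barcodes that passed the RNA filters but had no majority hashtag, 17 met the rule for migratory dendritic cells, 3 in pool 1, 9 in pool 2 and 5 in pool 3. They belong to no hashed sample and entered no comparison.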

How the results depend on the processing

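Against conventional cells, the counts of genes higher and lower were 942 and 891. They were 1634 and 2266 with no filter on low counts (13615 genes tested), 1444 and 1400 with counts summed per pool, 297 and 289 in cells thinned to 2000 UMIs (841 genes), 584 to 1012 and 660 to 1046 with each pool left out (the lowest of each without pool 2), 783 and 1058 with library size as the only scaling (42.5% of calls higher, against 51.4%), and 818 and 895 with DESeq2. Against other infiltrating cells, 3448 genes were lower with no filter, 806 and 1173 were higher and lower in thinned cells, and 908 to 1813 and 1179 to 2707 with each pool left out (the lowest without pool 2); library size alone gave 1223 and 2313 (34.6% higher, against 44.0%). A pair of arms was added after seeing the data, with minimums of 5 and 3 cells per sample in turn. Conventional cells with at most 2 C1q UMIs gave 562 and 592 calls, and those with Flt3 or Zbtb46 gave 513 and 511. The fit with no replicate block gave 900 and 866 calls against conventional cells and 1478 and 1834 against other infiltrating cells, and the pairing changed no count by over 1.5 times. The planned arm of conventional cells with Flt3 or Zbtb46 and at least 10 cells left 1 sample and was not run.

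Of the 10 tags, 8 passed, against 5 on raw log2 counts, 0 with at least 20 cells per class and 0 to 8 with each pool left out, where 4 or 5 samples cannot pass the exact test. The MHCII difference was 1.70 with at least 20 cells and 1.63 to 1.86 with each pool left out, and PD-L1 was 0.77 and 0.71 to 1.18. Over all alternatives, MHCII stayed between 1.34 and 3.1 and PD-L1 between 0.56 and 1.95. These ranges mix scales, since raw counts and counts per 1000 tags are in log2 and the centred log ratio is in natural log. On raw counts Tmem119 (0.14) and CD52 (0.49) turned round, and on counts per 1000 tags CD49d (-0.36) and CD74 (-0.33) did, as did CD49d (-0.059) against other infiltrating cells, where PD-L1 was 0.15. CD52 was 0.025 with at least 20 cells, 0.035 with a hashtag share of 90%, and -0.24 to 0.12 with each pool left out. Counts per 1000 tags are set against the tag total of the cell. In pool 1 the median migratory cell had 22928 tag UMIs and 17949 MHCII UMIs. Medians were 5946 and 2245.5 in conventional cells and 10349.5 and 1049.5 in other infiltrating cells. Raw CD49d medians were 808, 354 and 508 UMIs in the 3 classes in that order, and PD-L1 medians were 694, 97.5 and 356. The cause was not tested.

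With at least 6 UMIs from all 3 genes, shares of migratory cells were 0.462%, 0.633%, 0.786% and 0.313% under hashtags 3 to 6 of pool 1, 0.676%, 2.74% and 0.825% under hashtags 4 to 6 of pool 2, and 0% and 0.592% under hashtags 3 and 6 of pool 3.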
